A study of Mus musculus with 61 samples.

Results

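A set of 9 common reference genes was followed over 61 fractions of mouse brain: Gapdh, Actb, Hprt, Tbp, Ppia, B2m, Pgk1, Gusb and Sdha. Each gene was taken with every probe whose RefSeq accession carries its symbol, which gave 12 probes for 8 of the 9 genes, among 15530 genes with a named and detected probe. No accession on the array matched a transcript of Gapdh in the reference table, so Gapdh was not analysed here. The brains were those of 6 male C57BL/6J mice, 8 weeks old, untreated and of 1 genotype. Each whole brain was cut in 1 plane into sections of 5 µm, 200 sections (1 mm) were pooled as a fraction, and the RNA of each fraction was hybridized with a single dye to an Agilent whole mouse genome array. The sagittal series S and So had 9 and 10 fractions from left to right, the coronal series C and Co had 13 and 16 from caudal to rostral, and the horizontal series H and Ho had 6 and 7 from dorsal to ventral. The So, Co and Ho series were cut slightly obliquely, and 28 pairs of fractions of the 2 mice of a plane held 56 of the 61 fractions. The study chose these pairs by the highest correlation of the array intensities themselves, so tests and correlations over pairs rest on pairs selected for agreement over all probes. Each series is 1 mouse, and each fraction holds every cell type of its slab. A lower level can therefore come from fewer cells of a type or from less RNA per cell, which cannot be told apart here.

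Reference genes, or housekeeping genes, are genes whose transcripts are used as a common yardstick between samples, on the assumption that their level hardly moves. They do very different work in the cell. Actb encodes the cytoskeletal protein beta-actin, Pgk1 an enzyme of glycolysis, Hprt an enzyme that salvages purines, Tbp the TATA-binding subunit of the general transcription factor TFIID, and Ppia the peptidyl-prolyl isomerase cyclophilin A. B2m encodes beta-2-microglobulin, the light chain of MHC class I molecules, Gusb the lysosomal glycosidase beta-glucuronidase, and Sdha the flavoprotein subunit of succinate dehydrogenase, the mitochondrial complex that takes part in both the citric acid cycle and the respiratory chain. Microglia and endothelial cells of the brain are known for high class I and lysosomal expression compared with neurons.

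All 12 probes were well above background on all 61 arrays, and 0 probes of the array were saturated. Levels are given as log2 intensity minus the 75th percentile of the array, and centred levels also have the mean of their own series removed. The arrays had between 57.9% and 73.1% of probes well above background and a signal at the 75th percentile between 739.7 and 1971 units. Where a gene had 2 probes, the brighter served as its main probe and the other is given beside it.

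The promoters of 3 members are shown because they carry the contrast described next: Gusb and B2m rose together at the rostral end, and Hprt was not called there. The sequences are those of RefSeq on build GRCm38.p6, in windows of 300 bases that end shortly after the start of the gene, 5′ to 3′ on the strand of the gene. They lie at chr5:130003000-130003299 on the minus strand (Gusb), chr2:122147437-122147736 on the plus strand (B2m) and chrX:52987828-52988127 on the plus strand (Hprt). Capitals mark exact matches on either strand to 3 motifs. The first was the GC box, spelled GGGCGG. The second was the CCAAT box, spelled by its name. The third was the TATA box, spelled TATAAA.
Gusb: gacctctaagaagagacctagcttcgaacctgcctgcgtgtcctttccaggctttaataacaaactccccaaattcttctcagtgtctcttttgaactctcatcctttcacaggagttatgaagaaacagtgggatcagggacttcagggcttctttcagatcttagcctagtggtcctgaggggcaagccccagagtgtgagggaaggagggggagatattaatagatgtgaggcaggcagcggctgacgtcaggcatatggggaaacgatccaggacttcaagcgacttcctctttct
B2m: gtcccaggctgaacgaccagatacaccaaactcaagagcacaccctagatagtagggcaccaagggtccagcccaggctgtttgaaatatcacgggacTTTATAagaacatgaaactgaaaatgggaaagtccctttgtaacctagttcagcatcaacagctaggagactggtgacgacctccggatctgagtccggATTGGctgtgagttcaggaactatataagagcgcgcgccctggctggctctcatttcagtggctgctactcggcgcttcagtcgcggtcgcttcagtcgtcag
Hprt: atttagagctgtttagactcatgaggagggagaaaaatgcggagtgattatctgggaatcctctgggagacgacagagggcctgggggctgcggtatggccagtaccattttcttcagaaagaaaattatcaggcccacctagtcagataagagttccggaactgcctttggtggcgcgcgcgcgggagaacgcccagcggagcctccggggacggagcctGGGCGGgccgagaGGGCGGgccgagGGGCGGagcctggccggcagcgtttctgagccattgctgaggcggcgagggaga
Of the 8 member promoters in the table, among them Gapdh and without Actb, 4 held the GC box, 3 the CCAAT box and 2 the TATA box. Of all 32851 promoters of the same length, 35.7%, 37.4% and 13.6% held them. The Hprt window held 3 GC boxes and 22 CG pairs, that of B2m a CCAAT box, a TATA box and 14 CG pairs, and that of Gusb none of the 3 motifs and 6 CG pairs. These matches describe letters only and say nothing about binding of a factor.

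The spread of the 8 genes over the brain ran from that of the steadiest probes of the array to that of an ordinary one. The standard deviation (SD) over the 61 centred fractions (55 degrees of freedom) was 0.11 for Sdha and Hprt, 0.12 for Pgk1 and Tbp, 0.16 for Actb, 0.19 for Ppia, 0.21 for Gusb and 0.28 for B2m, all on the log2 scale. The median over all detected probes was 0.38, and over probes well above background on all arrays 0.25. Sdha, Hprt and Pgk1 thus lay at the 3.26, 3.40 and 4.18 percentile of detected probes, and Tbp at the 5.15. Actb lay at the 12.8, Ppia at the 19.8, Gusb at the 25.01 and B2m at the 36.5 percentile. Against probes well above background on all arrays, B2m lay at the 58.4 percentile, above the middle of the array's expressed probes.

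**Figure D1:**
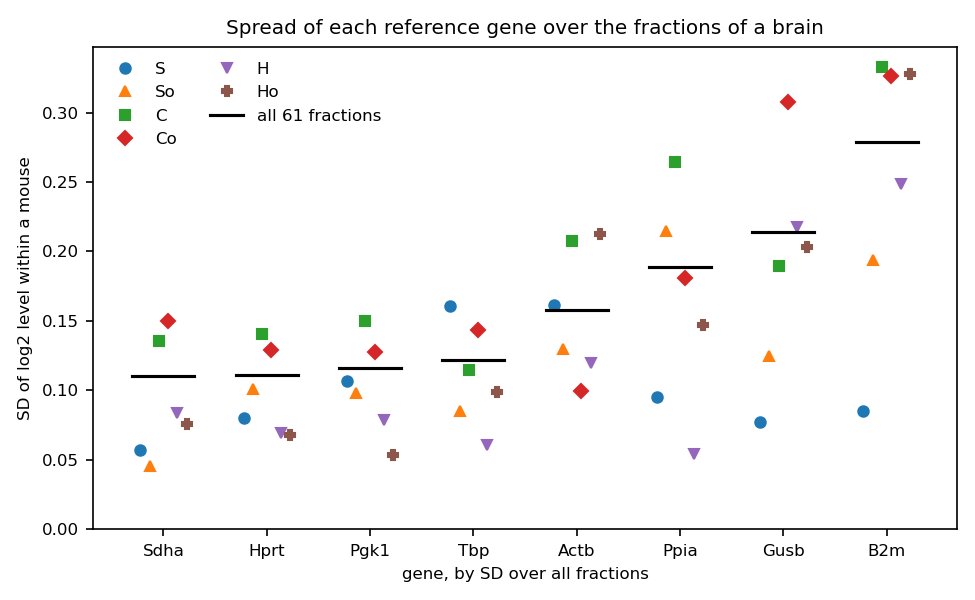
SD of the log2 level within each of the 6 mice (symbols) and over all 61 centred fractions (black bars), for the main probe of each gene. The SD of Sdha lies between 0.045 in So and 0.150 in Co, and that of B2m between 0.085 in S and 0.333 in C.

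The order of neighbours in this ranking was not settled by 6 mice. For the 7 pairs of neighbouring genes, an exact two-sided sign-flip test of the log2 ratio of their SDs over the 6 mice gave adjusted p between 0.22 and 0.81, and the smallest p this design allows is 0.0312. B2m had the larger SD than its neighbour Gusb in 6 of 6 mice (mean log2 ratio 0.43 ± 0.32 (SD, n = 6), exact p = 0.0312, adjusted p = 0.22). Actb was larger than its neighbour Tbp in 5 of 6 mice (exact p = 0.0938, adjusted p = 0.33), and every other neighbour was larger in 3 of 6. Between the ends of the order, chosen after the ranking was seen, the SD of B2m was 2.76 times that of Sdha (geometric mean over the mice) and larger in 6 of 6 mice.

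Spread and reproducible variation did not always go together in these genes. limma's moderated F test over the pairs, with the mouse as a block and Benjamini-Hochberg adjustment over 36573 detected probes, called 5 of the 8 genes, where 64.1% of all detected probes were called. The called genes were Gusb (F = 7.74, adjusted p = 2.93e-06), B2m (F = 7.06, adjusted p = 6.9e-06), Sdha (F = 4.65, adjusted p = 0.000257), Ppia (F = 3.604, adjusted p = 0.00183) and Tbp (F = 2.79, adjusted p = 0.0102). Among the called genes were Ppia, Gusb and B2m, with the widest spreads, but also Sdha, with the smallest spread of all. Not called were Pgk1 (adjusted p = 0.13), Actb (adjusted p = 0.30) and Hprt (adjusted p = 0.48). The second probes of B2m (adjusted p = 0.0348) and Sdha (adjusted p = 0.00936) were called too, but the second probe of Tbp was not (F = 1.30, adjusted p = 0.31).

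The intraclass correlation of paired fractions comes from the same model without moderation of the variance, and puts it on a scale of agreement. This correlation is the share of a probe's variance that 2 mice have in common in a pair, once the mean difference between mice is removed. It was 0.80 for Gusb (95% interval 0.59 to 0.90), 0.76 for B2m (0.54 to 0.89), 0.75 for Sdha (0.51 to 0.88), 0.59 for Ppia (0.26 to 0.79) and 0.52 for Tbp (0.17 to 0.75). For Pgk1 (0.31, interval −0.084 to 0.62), Actb (0.14, −0.25 to 0.50) and Hprt (0.078, −0.31 to 0.45) the interval included 0. For Sdha the agreement was mostly coronal: its main probe had r = 0.14 between the mice over the 6 horizontal pairs, and was not called over the horizontal (adjusted p = 0.28) or sagittal pairs (adjusted p = 0.72).

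Along the coronal axis, 6 of 8 genes were called, where 68.7% of all detected probes were. They were the 5 genes above and Pgk1, which was close to the threshold (adjusted p = 0.0376) and whose second probe was not called (adjusted p = 0.30). Actb (adjusted p = 0.25) and Hprt (adjusted p = 0.24) were not called. The profiles of the 2 coronal mice correlated over 13 pairs with Pearson's r of 0.86 for Gusb and Sdha, 0.81 for B2m, 0.75 for Ppia, 0.74 for Tbp, 0.37 for Pgk1, 0.041 for Actb and −0.052 for Hprt. The median r over 22323 probes well above background on all arrays was 0.81, so Gusb, B2m and Sdha were at or above that of an ordinary probe and Actb and Hprt far below. Neighbouring fractions mostly shared a slide, and these correlations are descriptions.

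**Figure D2:**
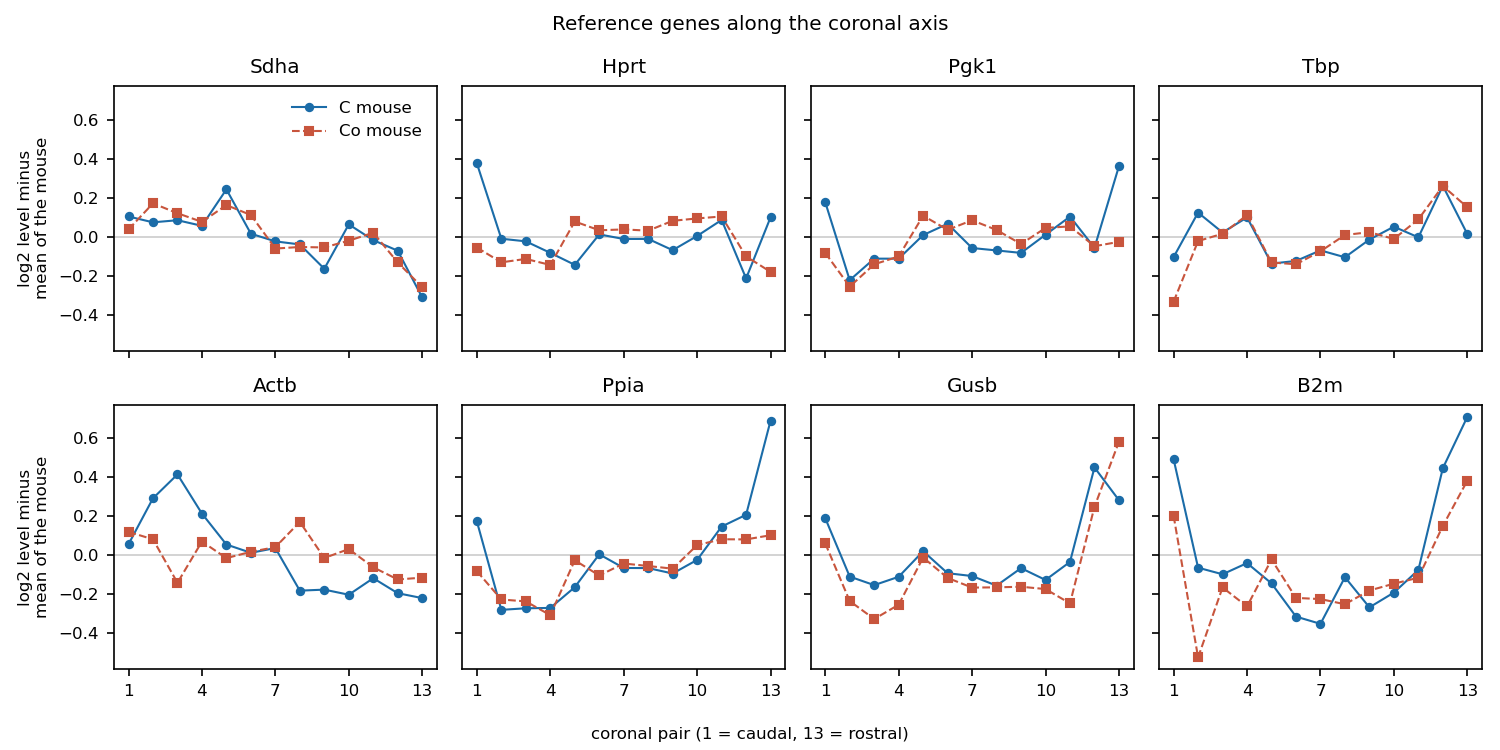
Centred log2 level of the main probe (y axis) in the 13 coronal pairs from caudal to rostral (x axis), for the C mouse (blue circles) and the Co mouse (red squares). Gusb and B2m turn up over the last 2 pairs in both mice, Sdha declines, and the profiles of Actb and Hprt differ between the mice.

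The rostral end held the largest changes. The fractions of the pairs c12 and c13, where 9 of 10 olfactory bulb markers were called higher, were compared with the 8 middle pairs c4 to c11. Of the 8 genes, 4 rose and 1 fell, where 24.1% of all detected probes rose and 27.5% fell. The median difference of all detected probes was −0.0024 and that of the 8 genes 0.13, on the log2 scale.

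Gusb had levels of 0.13 and −0.03 in the 2 rostral fractions of the C mouse, where its 8 middle fractions lay between −0.47 and −0.30. In the Co mouse, the 2 rostral fractions had −0.24 and 0.10, and the middle ones lay between −0.74 and −0.50. The groups did not overlap in either mouse. The difference was 0.51 ± 0.050 (SE, log2; adjusted p = 1.33e-09), or 1.43-fold (95% interval 1.33 to 1.53). This SE and interval, like those that follow, rest on fractions of 2 mice and have no term for the slide. They do not give the spread between mice. The last fraction of the Co series, Co16, which has no partner and entered no test, was higher still at 0.26. Within 1 slide, C12 exceeded the mean of C9 to C11 by 0.53, and Co14 and Co15 exceeded Co13 by 0.42.

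B2m rose by 0.60 ± 0.066 (SE, log2; adjusted p = 1.08e-08), or 1.52-fold (95% interval 1.38 to 1.67). The rostral levels were 1.88 and 2.14 in C, above its middle fractions of 1.08 to 1.39. In Co they were 1.92 and 2.15, above 1.51 to 1.75, and Co16 had the highest level of all 61 fractions at 2.47. Its second probe rose by 0.52 (adjusted p = 0.000479), with overlapping groups. Within 1 slide, C12 exceeded C9 to C11 by 0.62, while Co14 and Co15 exceeded Co13 by 0.14.

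Ppia rose by 0.33 ± 0.061 (SE, log2; adjusted p = 3.77e-05), less evenly in the 2 mice. The rise was 0.52 in C and 0.15 in Co, and without the C mouse it was 0.15 with adjusted p = 0.073. With no block for the mouse, Ppia was not called (adjusted p = 0.053). C13 stood at 4.28, with every other C fraction at or below 3.80. C13 was also scanned on another day than the other C fractions and had the lowest 75th percentile of its series, at 923.6 units. Over the 61 fractions, the centred level of Ppia correlated with the centred log2 of that percentile at r = −0.75, the strongest such value among the 8 genes. The others were B2m −0.59, Pgk1 −0.54, Gusb −0.45, Hprt −0.40, Actb −0.28, Tbp 0.15 and Sdha 0.27. Other fractions given here for high levels were also on dim arrays for their series. They were Ho1 (739.7 units), So1 (939.7), Co1 (1351) and Co16 (1444). The part of array brightness in these results was not tested.

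Tbp rose by 0.20 ± 0.050 (SE, log2; adjusted p = 0.00145), and its second probe by 0.17 (adjusted p = 0.0137). Its rostral levels were −2.09 and −2.33 in C against −2.49 to −2.25 in the middle fractions, so that only C12 lay above them. In Co, both rostral fractions, at −1.89 and −1.999, lay above the middle ones of −2.29 to −2.04. Tbp is a dim probe here, with signals from 129 to 511 units. Without the Co mouse the difference of Tbp was 0.18 and no longer called (adjusted p = 0.087).

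Sdha was the single member that fell, by 0.21 on the log2 scale (SE 0.034; adjusted p = 6.48e-06). It declined from 3.87 at C5 to 3.31 at C13, and from 3.67 at Co1 to 3.13 at Co16, the lowest and highest fractions of each series. The drop was −0.21 in the C mouse and −0.22 in the Co mouse. Its second probe had a difference of −0.083 and was not called (adjusted p = 0.18).

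Actb (−0.16, 95% interval −0.31 to 0.0012), Hprt (−0.10, −0.22 to 0.0085) and Pgk1 (0.052, −0.056 to 0.16) were not called at the rostral end. These intervals leave room for differences of up to 0.31, 0.22 and 0.16 on the log2 scale. For Hprt, C12 (4.69) and Co15 (4.596) held the lowest levels of their series, while Co14 had 4.68 and C13 had 5.00. The caudal fractions Co3 (4.64), Co4 (4.66) and Co5 (4.63) were lower than Co14. Without the C mouse the difference of Hprt was −0.18 and was called (adjusted p = 0.0103).

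**Figure D3:**
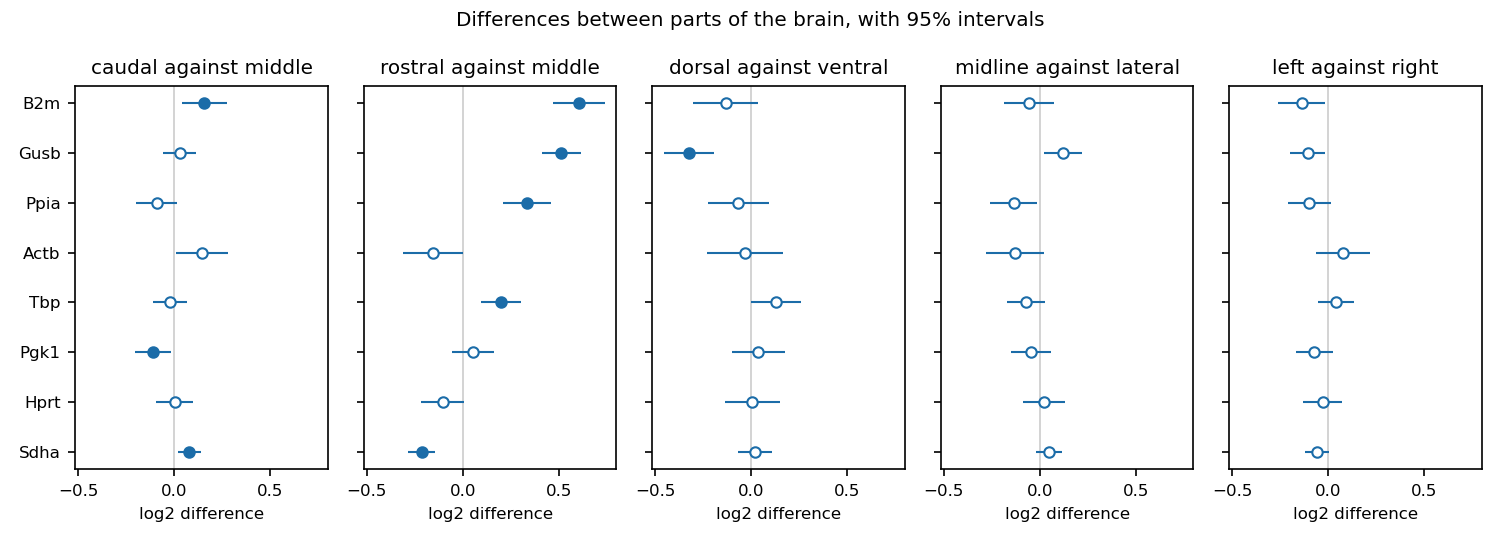
log2 difference (x axis) of each gene (y axis) in 5 comparisons of brain parts, with 95% intervals from limma's moderated variance. Filled circles have an adjusted p below 0.05. The rostral panel holds the widest differences, with B2m at 0.60, Gusb at 0.51 and Sdha at −0.21.

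Markers of other cell types moved along with the rostral change. All 11 listed genes of meningeal fibroblasts rose (their mean centred level was 0.52 to 0.75 in the 4 rostral fractions and −1.04 to 0.40 in the 16 middle ones), and 9 of 12 microglial genes rose while 0 fell. Of 12 neuronal genes, 8 fell and 1 rose, with a mean of −0.66 to −0.36 in the rostral and 0.029 to 0.30 in the middle fractions. Endothelial markers rose in 8 of 12 and blood cell markers in 6 of 6 cases, and 10 of 11 myelin markers fell. Of 9 astrocyte genes, 5 rose and 1 fell, and 8 of 8 choroid plexus genes fell. The rostral and middle means overlapped for microglial (0.34 to 0.59 against −1.09 to 0.46) and endothelial markers (−0.00067 to 0.47 against −0.32 to 0.23). They overlapped too for blood cell (0.26 to 1.34 against −1.58 to 0.56), myelin, astrocyte and choroid plexus markers. Among all detected probes, 24.1% rose and 27.5% fell. The mean of 6 olfactory bulb markers was 2.22 to 3.07 in the rostral fractions and −1.63 to 0.14 in the middle ones. Over all 61 fractions, the meningeal mean correlated with Gusb at r = 0.75 and with B2m at 0.70, the endothelial mean with them at 0.67 and 0.69, the blood cell mean at 0.64 and 0.65, the microglial mean with Ppia at 0.78, Gusb at 0.57 and B2m at 0.57, and the neuronal mean with Sdha at 0.71, Gusb at −0.72 and B2m at −0.58. The strongest r of Hprt with any of the lists was −0.41, with cerebellar granule cells. Every averaged marker was well above background on all arrays, and the part of these cell types in the levels of the reference genes was not tested.

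At the caudal end, in the pairs c1 to c3, where 10 of 11 hindbrain and 9 of 9 cerebellar granule cell markers were called higher, differences were smaller. The median of all detected probes was itself shifted by 0.12 (log2) against the middle pairs, and 33.8% of all detected probes rose and 23.3% fell. Of the 8 genes, B2m (0.16, adjusted p = 0.0201) and Sdha (0.079, adjusted p = 0.0239) were called higher and Pgk1 lower (−0.11, adjusted p = 0.0370). The difference of B2m was 0.30 in C and 0.015 in Co, that of Sdha 0.071 and 0.087, and that of Pgk1 −0.036 and −0.19. The mean centred level of B2m was 0.35 in c1, −0.29 in c2 and −0.13 in c3, where the 16 middle fractions had a median of −0.19. Of the marker lists, 10 of 11 meningeal, 10 of 12 endothelial, 8 of 9 astrocyte and 6 of 6 blood cell genes rose caudally and 12 of 12 microglial genes fell. The median meningeal difference was 0.84, with Gusb at 0.027, and the part of these cells was not tested. Relative to the median of all probes, the differences of the called genes were 0.040 for B2m, −0.038 for Sdha and −0.23 for Pgk1. With each array scaled to its median, Sdha changed sign to −0.0033, B2m was no longer called (0.074) and Ppia was called lower (−0.17). With the slide as a random block, 0 of the 8 genes were called. Hprt differed by 0.00083 (95% interval −0.096 to 0.098), yet C1 and Co1, the extreme caudal fractions, held its highest level of each series at 5.28 and 5.07. The 2 mice went opposite ways for Hprt, with 0.14 in C and −0.14 in Co. Without the C mouse the difference was −0.14 and was called (adjusted p = 0.0160).

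Along the horizontal axis, Gusb and B2m were called and the other 6 genes were not, where 28.4% of all detected probes were called. Below the top fraction, Gusb went up toward the base of the brain. In H it went from −1.05 at H2 to −0.44 at H6, and in Ho from −0.97 at Ho2 to −0.52 at Ho7, while the top fraction H1 had −0.72, and the unpaired Ho1, which entered no test, had the highest level of its series at −0.50. The dorsal pairs h1 and h2 differed from the ventral pairs h5 and h6 by −0.33 ± 0.063 (SE, log2; adjusted p = 0.000262), with −0.32 in H and −0.33 in Ho. Among all detected probes, 12.2% were called higher dorsally and 15% lower. With the slide in place of the mouse the difference was −0.42 and not called (adjusted p = 0.082). The mean of the myelin markers, with 11 of 11 genes lower dorsally, moved with it (−1.50 to 0.13 in the 4 dorsal and 0.25 to 0.59 in the 4 ventral fractions), and so did 8 of 12 microglial and 10 of 10 hypothalamic markers, lower dorsally. The microglial means overlapped (−0.30 to 0.22 dorsally and −0.13 to 0.43 ventrally). Among other lists, 5 of 11 meningeal genes were called lower dorsally, and 0 of 12 endothelial genes were called. Of 11 cortical genes, 9 were called higher dorsally and 1 lower, and 9 of 9 cerebellar granule cell genes were called higher. Over all 61 fractions the myelin mean correlated with Gusb at r = −0.29, and the part of these cells was not tested.

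B2m was likewise high at both the top and the base. Its levels were 1.67 at H1, 1.16 at H3 and 1.77 at H6, and in the other mouse 1.99 at Ho1, 1.07 at Ho5 and 1.78 at Ho7. The comparison of dorsal and ventral pairs was not called (−0.13, adjusted p = 0.27), while the test over the horizontal pairs was passed (F = 7.90, adjusted p = 0.00113). The second probe of B2m was not called over the horizontal pairs (adjusted p = 0.22). Hprt (range 0.16 in H and 0.20 in Ho) and Pgk1 (0.21 and 0.15) were close to flat along this axis.

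Across the sagittal axis, 0 of the 8 genes were called by limma at an adjusted p below 0.05, and 0 at an unadjusted p below 0.05, where 26.9% of all detected probes were called. The comparison of the midline pairs s4 to s6 with the lateral pairs s1, s2, s8 and s9 called 0 of 8 main probes and 2 at an unadjusted p below 0.05 (Gusb 0.12, adjusted p = 0.053; Ppia −0.14, adjusted p = 0.076). Among all detected probes, 17.8% were higher and 15.5% lower at the midline. The second probe of Sdha was higher there by 0.17 (adjusted p = 0.00778), its main probe by 0.047 (adjusted p = 0.32). This comparison depended on the scaling. With each array scaled to its median, the median of all probes moved from 0.0047 to −0.10 and 5 of the 8 genes were called.

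Left and right hemispheres gave no call. The comparison of s1 to s4 with s6 to s9 called 0 of 8 genes and 1.62% of all detected probes, and 2 genes had an unadjusted p below 0.05 (Gusb −0.11, adjusted p = 0.23; B2m −0.14, adjusted p = 0.24). Between mirrored fractions of the S mouse, Hprt differed by at most 0.045, Sdha by 0.12 and Gusb by 0.12, whereas Pgk1 differed by as much as 0.41. In the S mouse the SDs of B2m (0.085) and Gusb (0.077) were below those of Ppia (0.095), Pgk1 (0.107), Tbp and Actb (both 0.161), and in the So mouse B2m had 0.194.

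The level of a reference gene also differed between mice, and by more than it did between regions for Actb. In the Co mouse, all 16 fractions had Actb levels from −1.07 to −0.75, and all 45 fractions of the other 5 mice had levels from 0.26 to 1.12. The groups did not overlap. Means ± SD were −0.93 ± 0.10 (n = 16) in Co, 0.69 ± 0.21 (n = 13) in C, 0.86 ± 0.13 (n = 10) in So, 0.62 ± 0.16 (n = 9) in S, 0.40 ± 0.12 (n = 6) in H and 0.45 ± 0.21 (n = 7) in Ho. The unscaled signal showed it too, with at most 1028 units in Co and at least 1280 in every other fraction. Co was below C in 13 of 13 pairs, by 1.26 to 2.17, and the difference of −1.61 ± 0.054 (SE, log2; adjusted p = 3.98e-18) was a level of 0.33-fold (95% interval 0.30 to 0.35). It had the fourth rank by F of 36573 detected probes, and 49 probes were as low or lower in Co against C. The probe is printed as 10 spots on each array, whose SD had a median of 0.048. That SD describes repeat spots of 1 probe, and Actb had no second probe to set beside it. Its signals of 722 to 2866 units lay below those of Hprt (25258 to 57022) and above those of Tbp (129 to 511). How well this probe follows the Actb transcript was not tested. Within the Co mouse, Actb had its smallest spread of any mouse (SD 0.10).

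**Figure D4:**
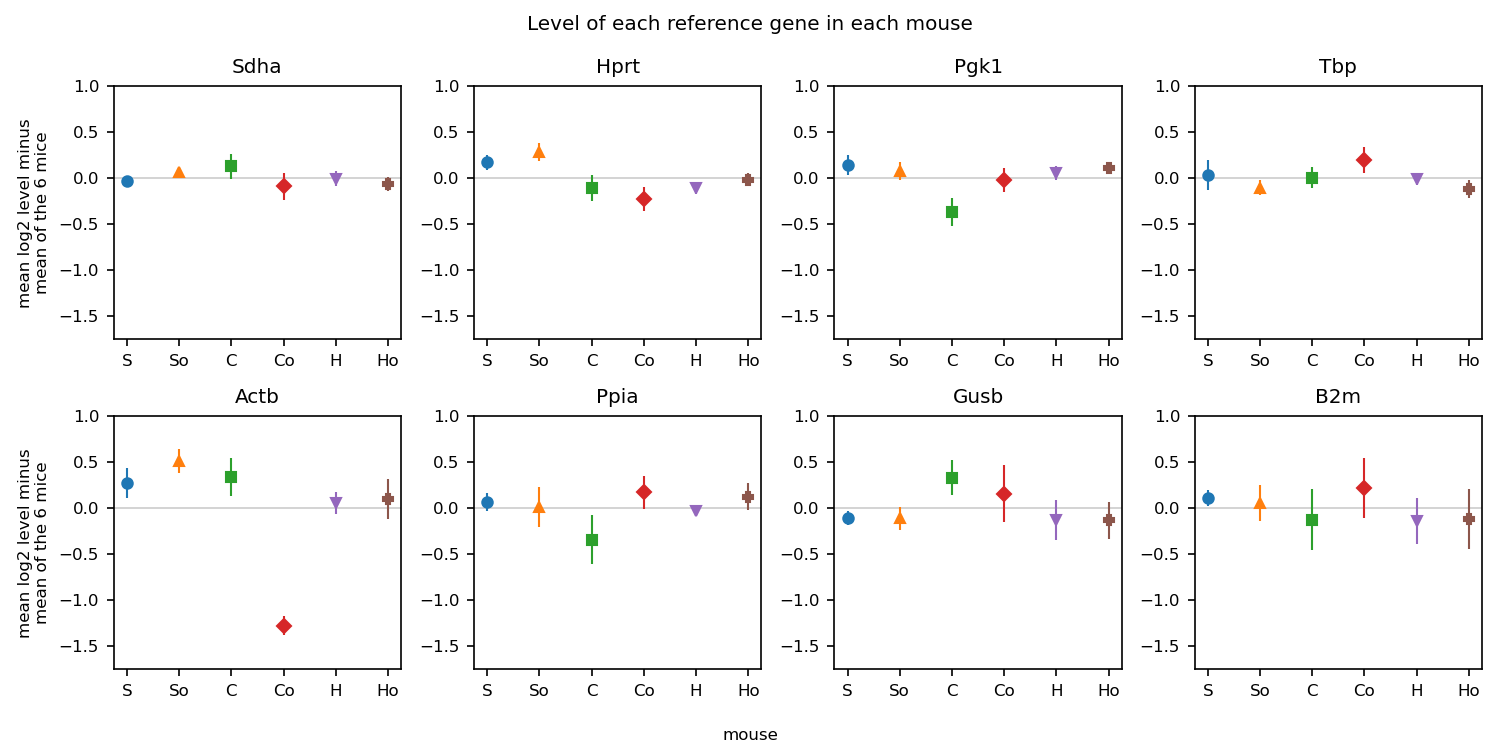
Mean log2 level in each mouse (symbols) with the SD over its fractions (bars), minus the mean of the 6 mice, for the main probe of each gene. Actb lies far below 0 in Co alone, and Pgk1 and Ppia are lowest in C.

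All 8 genes differed between C and Co (53.4% of all detected probes were called). Ppia was higher in Co by 0.45, Pgk1 by 0.32, B2m by 0.24 and Tbp by 0.19, and Gusb (−0.24), Sdha (−0.21) and Hprt (−0.15) were lower. The second probe of Tbp gave −0.0020 (adjusted p = 0.97), and that of B2m 0.64 in place of 0.24. Between S and So, 3 genes were called (29.9% of all detected probes): Actb higher in So by 0.21 and Sdha by 0.11, and Tbp lower (−0.12), with the second probe of Tbp called the other way (0.15, adjusted p = 0.0224). Between H and Ho, 0 of 8 genes were called and 0 had an unadjusted p below 0.05, and 5.52% of all detected probes were called. The C and Co arrays were scanned on separate days, as were S and So apart from S1, while H and Ho shared 1 day. C was cut straight and Co obliquely, and they shared no slide. Mouse, cut, slide and scan day therefore cannot be told apart for C and Co, and 1 mouse per series does not give the spread between mice.

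Most ratios of 2 members were less steady than the members themselves. Of 28 ratios, 4 (Hprt to Pgk1, B2m to Gusb, Ppia to Gusb and Ppia to B2m) had an SD below that of both genes and 20 had one above both. By arithmetic, the SD of a ratio exceeds both whenever the 2 genes are uncorrelated or negatively correlated. This count therefore restates the correlations between members. The log2 ratio of Hprt to Pgk1 had an SD of 0.092 over the 61 centred fractions, below the SD of either gene, and their centred levels correlated at r = 0.68. The next steadiest ratio was Ppia to Pgk1 (0.12; r = 0.77). B2m to Gusb, both wide on their own, had 0.17 (r = 0.80). The least steady ratios were B2m to Sdha (0.33), Tbp to B2m (0.31) and Actb to B2m (0.30), and the ratio of B2m to Sdha was highest at C13. Averaged over its 7 partners, the SD of a gene's ratios was 0.18 for Pgk1 and Hprt, 0.20 for Ppia, 0.22 for Sdha, 0.23 for Tbp, Actb and Gusb, and 0.26 for B2m. The mean of all 8 genes had an SD of 0.090. In this measure Sdha, the gene of smallest spread, came after Pgk1, Hprt and Ppia, and its levels correlated negatively with those of Ppia (r = −0.39), Gusb (−0.36), Tbp (−0.35) and B2m (−0.28).

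**Figure D5:**
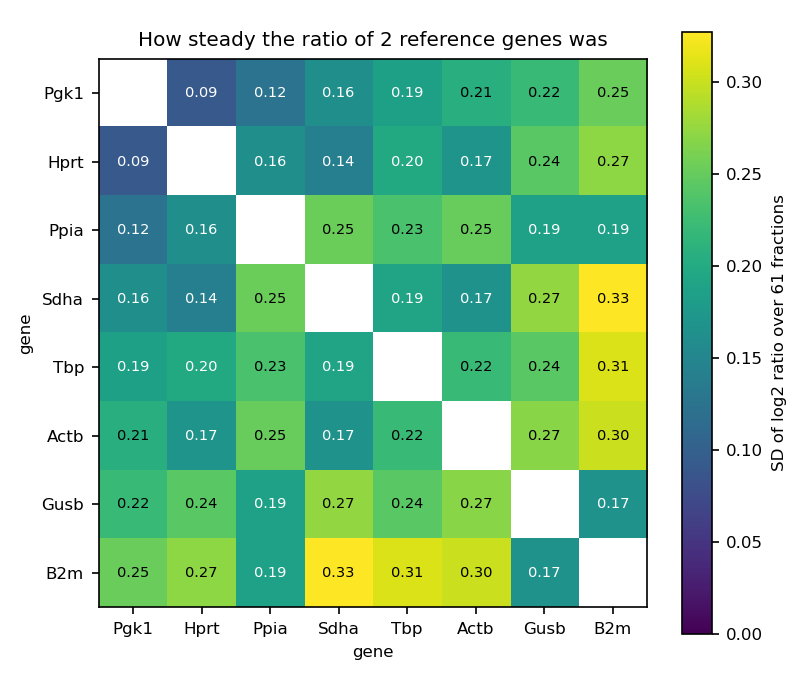
SD of the log2 ratio of 2 genes over the 61 centred fractions, in log2 units (colour and numbers), with genes ordered by their mean over 7 partners. The darkest off-diagonal cell is Hprt with Pgk1 at 0.09 and the lightest is B2m with Sdha at 0.33.

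The genes whose centred pattern was most like that of a member were found among 11523 other genes measured on all arrays, over 61 fractions. For Ppia they were Timm10 (r = 0.95), Psmb5 (0.94) and Ubl5 (0.94), for Gusb Tmem176b (0.94), H2-DMb2 (0.92) and Casp8 (0.92), and for B2m Il10rb (0.91), Myd88 (0.91) and Rpl23 (0.90). Hprt had Snrnp35, Cdkn2d and Trmt5 (0.81 to 0.82), Sdha had Dync1li2, Flywch1 and Nppc (0.79 to 0.81), and Pgk1 had Dmap1, Atp6v1f and Yars2 (0.78 to 0.81). Actb (Adam15, Pitpnm1 and Sh3glb1) and Tbp (Zfp385b, Xrcc1 and Psme4) had no partner above 0.68. Median r over all these genes lay between −0.036 and 0.091 for the 8 members.

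Other genes of each pathway are read against the 64.1% of all detected probes that varied over the pairs. In the same way, 24.1% rose and 27.5% fell rostrally, 33.8% rose and 23.3% fell caudally, and 12.2% were higher and 15% lower dorsally. Among 13 measured genes of MHC class I presentation, 11 varied over the pairs, and 10 rose and 0 fell at the rostral end, with a median difference of 0.59. Psmb8, a subunit of the immunoproteasome, rose by 1.16 (adjusted p = 2.64e-11), the peptide transporter gene Tap2 by 0.60 (adjusted p = 0.00229), and B2m by 0.60. The chaperone genes Canx (−0.044, adjusted p = 0.37) and Pdia3 (0.13, adjusted p = 0.14) had the smallest spreads of the list and were not called there. Unlike B2m, the class I heavy chain gene H2-D1 had a larger value caudally (1.04, adjusted p = 3.17e-15) than rostrally (0.59, adjusted p = 8.36e-09). That contrast between the genes was not tested.

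Of 14 lysosomal glycosidases, 12 varied over the pairs, 8 rose and 1 fell rostrally (24.1% and 27.5% of all probes), and 1 was higher and 8 were lower dorsally (12.2% and 15% of all probes), Gusb among them. Gaa, acid alpha-glucosidase, had the widest spread (SD 0.29) and was lower both rostrally (−0.43, adjusted p = 1e-07) and dorsally (−0.64, adjusted p = 7.02e-08). The glycosidase genes with the smallest spread were Glb1 (0.10) and Neu1 (0.12).

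Sdha went against its own complex. Of 6 measured genes of succinate dehydrogenase and its assembly, 5 rose rostrally and Sdha alone fell. Sdhb, the iron-sulfur subunit, rose by 0.26 (adjusted p = 3.96e-05), Sdhaf4 by 0.27 (adjusted p = 0.00121) and the assembly factor gene Sdhaf2 by 0.12 (adjusted p = 0.000669). Sdhaf2 had an SD of 0.061, smaller than that of any reference gene here. Since the second Sdha probe was not called, this contrast rests on 1 probe of Sdha.

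In glycolysis, 11 of 15 genes varied over the pairs, 10 fell and 4 rose caudally (23.3% and 33.8% of all probes), and 5 fell and 1 rose rostrally, where 5 of 15 is near the 27.5% of all probes that fell. Pgam1 (SD 0.072) and Gpi1 (0.099) were steadier than Pgk1, whereas Pfkl (0.30) and Ldha (0.37) had wide spreads with caudal differences of −0.67 (adjusted p = 5.7e-11) and −0.78 (adjusted p = 8.15e-13). Among 14 cyclophilins, 13 varied over the pairs, and 9 rose and 2 fell rostrally. Ppic rose by 1.31 (adjusted p = 4.72e-11) and Ppie by 0.46 (adjusted p = 2.95e-05), against 0.33 for Ppia, while Ppid fell by 0.18 on the log2 scale and Ppil1 rose by 0.21.

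Hprt had the smallest spread of 9 purine salvage genes, of which 7 varied over the pairs. Its list mates Ada (SD 0.38) and Ampd2 (0.39) were the widest, and Ampd2 rose rostrally by 1.37 (adjusted p = 3.68e-15). Tbp was next to Taf12 (SD 0.099) at the steady end of 11 TFIID genes, of which 10 varied over the pairs, and Taf8 and Taf13 (both 0.26) were the widest of those measured on all arrays. Actb had the smallest spread of 5 actin genes, followed by Acta2 (0.17), and Acta1 the widest (0.83), with a caudal difference of −1.91 (adjusted p = 1.09e-17).

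A further 18 genes that are used as references gave 16 with a probe, of which 10 varied over the pairs, and 9 rose and 1 fell rostrally. Canx (SD 0.098) was the steadiest, and the ribosomal protein genes Rps18 (0.28) and Rps29 (0.29) were as wide as B2m, with rostral rises of 0.55 (adjusted p = 1.29e-06) and 0.48 (adjusted p = 1.49e-05).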

How the data were processed

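Total RNA of 61 fractions of 6 brains was measured on 1 array each. The authors deposited scanner files of Agilent Feature Extraction 9.1 (per the submitters' processing notes), whose background-subtracted intensity per spot was used here, and a table of intensity values that they had normalized with 1 constant per array, used as an alternative. Of the value columns of that table, 0 were left unused. The sample labels number the S fractions from 2, and they were renumbered from 1 by their order in the labels.

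For each of 41174 non-control probes, log2 intensities of its spots were averaged, and the array's 75th percentile was then subtracted. The 36573 probes well above background on at least 1 array were tested, and 22951 probes were named by a RefSeq accession. limma 3.58.1 in R 4.3.3 fitted the 28 pairs and the 6 mice (25 pair, 25 residual and 1.52 prior degrees of freedom), with Benjamini-Hochberg adjustment and a threshold of 0.05. The study's methods give an analysis of variance over the pairs. Here the mouse was added as its block, because fractions of a series come from 1 animal: in 258 combinations that share a mouse, deviations from the pair means correlated with a median r of 0.28. The second fraction of a pair is from another mouse, so the p-values rest on 2 animals per plane and on positions within them.

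The main probe of a gene was the one of highest mean log2 intensity, all members were named with every probe, and the genes named beside them were the 3 of highest r per member and the 2 widest and 2 steadiest of each list. H2-D1 was named after its values were seen. Some genes that the rule on lists would name are not reported here. The members and the lists were chosen with earlier results of these data known. Spreads and ratios were computed in Python 3.11.15 (pandas 2.3.3, numpy 2.4.6), exact sign-flip tests with scipy 1.17.1, and plots drawn with matplotlib 3.10.9. The 12 member probes rest on 61 arrays from 6 mice, and the number of mice limits the precision. The fit was tested on simulated data with independent noise on each array and a shift for each mouse. The simulation held neither a correlation of fractions on a slide (0.42 in these data) nor pairs selected for agreement. It therefore cannot show how the p-values fare under either. Alternatives were other scalings, the authors' table, normexp (offset 50) with quantile normalization, other sets of probes, blocks for slide and scan day, pairing by fraction number, no moderation, an adjusted p of 0.01, the dimmer probe, linear intensities, and leaving out each fraction or mouse.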

Additional observations from a re-analysis of the deposited data

Results flagged for a closer look

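The mean level of Actb in Co stood apart from those of the other 5 mice (gap of 0.743 of the whole range, mean −0.93 against 0.40 to 0.86), and so did that of Pgk1 in C (0.684, mean 5.35 against 5.70 to 5.86). Among single fractions, the highest level of its series lay apart for Hprt in So1 (gap of 0.470, level 5.53 against 5.20 to 5.37), B2m in So1 (0.491, 2.03 against 1.40 to 1.72), Tbp in S2 (0.598, −1.93 against −2.45 to −2.24) and Ppia in S9 (0.614, 4.23 against 3.91 to 4.04). For Pgk1 the lowest level, in H6, lay apart (0.655, 5.62 against 5.76 to 5.83). These gaps exceeded Dixon's critical value in 7 of 48 groups of values, where chance gives about 1 in 20 for independent values of 1 normal population. Fractions of a series are ordered slabs of different tissue, so that rate does not hold for them. The count is therefore not read against chance.

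The difference between the 2 mice of a plane was not equal in the 3 planes for any of the 8 genes (limma's F test of the 2 contrasts of those differences, Benjamini-Hochberg adjustment). F was 279.8 for Actb, 36.3 for Sdha, 35.7 for Ppia, 25.1 for Pgk1, 19.6 for Tbp, 13.5 for B2m, 9.73 for Gusb and 9.16 for Hprt, with adjusted p from 9.05e-15 (Actb) to 0.00259 (Hprt).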

How the results depend on the processing

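Counts are of the 8 genes by their main probe. Over the pairs, 5 were called, and 3 with no replicate block for the mouse (61.3% of all probes), 3 with the slide in place of the mouse, 3 with fractions of the same number paired and 2 without the C mouse. Over the coronal pairs, 6 were called, 2 with no replicate block and 3 without the C mouse. Over the horizontal pairs, 2 were called, 0 with no replicate block, with same-number pairing or without the H mouse, and 1 without the Ho mouse or by the dimmer probe. Over the sagittal pairs, 0 were called, 2 with median scaling or the authors' table, and 1 with slide or scan day as a fixed block or without the So, the C or the Co mouse. Caudally, 3 were called, and 0 with no replicate block, with the slide as a random or fixed block, or at an adjusted p of 0.01. Rostrally, 5 were called, and 3 (Gusb, B2m and Ppia) with the slide in place of the mouse, where Gusb had 0.72 and B2m 0.83. Dorsally, 1 was called, 2 with median scaling, the authors' table or normexp with quantile normalization, and 0 with the slide in place of the mouse or same-number pairing. At the midline, 0 were called, 5 with median scaling or the authors' table, 3 with normexp, 2 with scan day, and 1 with no moderation, with probes detected on all arrays, without the So, the C or the Co mouse, or by the dimmer probe. Between mice, 11 of 24 comparisons were called. With scan day as a block, Co against C could not be fitted. S1 was the only S array scanned on the day of the So arrays. So against S rests on that 1 array in this fit, and its calls there cannot decide whether those mice differ. The blocks by slide could not be fitted for the mice where they replace the mouse. Calls over all detected probes moved as well. Caudally they went from 20877 to 16000 with no replicate block and 15425 with the slide as a random block. Dorsally they went from 9944 to 4959 with same-number pairing and 10281 with median scaling. At the midline they went from 12170 to 13660 with median scaling. Counts of the 8 genes alone do not tell a change in these genes from a change over all probes. The cause of these changes was not tested.

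Leaving out each paired fraction gave 5 to 6 genes over the pairs, 5 to 7 over the coronal, 2 over the horizontal and 0 to 1 over the sagittal pairs, 1 to 4 caudally, 5 to 6 rostrally, 1 dorsally, 0 to 2 at the midline, 0 to 1 between hemispheres and 10 to 12 between mice. Caudally, the count fell to 1 without C1, without C2 or without Co4. A sagittal call appeared without So3, C13 or Co15, a midline call without S1, So3, So10, C13, Co15, H1 or Ho2, and a hemisphere call without S9. Among differences called in at least 1 of the settings compared, signs turned for Sdha caudally with median scaling (−0.0033) and the authors' table (−0.0037), for Hprt caudally without the C mouse (−0.14), and for Tbp by its dimmer probe in So against S (0.15) and Co against C (−0.0020). Differences called in neither setting turned too, as for B2m in So against S by its dimmer probe (−0.10 to 0.25) and dorsally with same-number pairing (−0.13 to 0.23), and Pgk1 in So against S with scan day (−0.078 to 0.22). The pairing of mice by block changed no other count past 1.5 times. Of all called probes, 59.2% were higher caudally, 44.9% dorsally, 53.4% at the midline, 52.5% on the left, 41.4% in So and 71.0% in Ho, against 47.6%, 61.4%, 30.8%, 77.7%, 63.1% and 58.8% with median scaling. With 7 neighbours and at most 6 mice, no single neighbour in the order of the spreads could pass an adjusted p of 0.05, so its 0 calls under 12 alternatives say nothing about stability. B2m was widest in each, and Sdha, Hprt or Tbp the steadiest. With normexp and quantile normalization the SD of Sdha was 0.15 and Hprt the steadiest (0.098).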
